A study of Mus musculus with 6 samples.

Results

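The p53 family and its targets were followed through 10 genes of the deposited table, chosen by name from its 27179 gene numbers. They were the family members Trp53 and Trp73, the p53 antagonist gene Mdm2, and the p53-responsive genes Ccng1, Bbc3, Pmaip1, Sesn2, Phlda3, Zmat3 and Gadd45a. All 10 were matched to a row, and all 10 passed the filter on low counts that left 11740 genes for testing.

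p53, the product of Trp53, is a transcription factor that is stabilised when DNA is damaged or growth is stressed, and it switches on genes for cell cycle arrest, repair and apoptosis. Its level is held down by the ubiquitin ligase MDM2, whose gene is itself a p53 target, so that the pair forms a feedback loop. p73, the product of Trp73, is a relative of p53 that binds similar DNA sites and is made in long and N-terminally truncated forms from separate promoters. In activated T cells p53 restrains proliferation, and loss of Trp53 in mice leads to thymic lymphoma.

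The cells were gBT-I T cells, which are CD8+ cells bearing a transgenic receptor specific for the gB498-505 peptide of a herpes virus. All 6 cultures were started from total spleen cells of gBT-I mice kept SPF, were activated with the peptide and LPS, were split and fed IL-2 daily from day 2 to day 5, and were taken for RNA on day 6. The control group (3 libraries) had no further treatment named in the labels, and the butyrate group (3 libraries) was given butyrate, a bacterial short-chain fatty acid that inhibits histone deacetylases, from day 3. The comparison asks how this treatment alters the levels of p53 family and target transcripts. The labels name no butyrate dose, animal age or sorting step, and the labels do not tie the replicates to separate mice.

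Libraries held 5383380 to 6244350 counts, and levels are given as CPM, counts scaled by library size and by TMM factors, which correct for differences in library composition. A gene without reads could still have up to 3 counts, or 0.480 to 0.557 CPM depending on the library, where counting error alone is considered. All 10 T cell markers passed the filter, with a summed level of 6546 to 6746 CPM in control and 5956 to 7111 CPM with butyrate. Among markers of other spleen cells, the 13 macrophage and dendritic cell genes summed to 34.5 to 93.3 CPM in control and to 128 to 137 CPM after butyrate, with Siglech at 0 in every library. Of the 6 tested, Itgam (mean 4.08 and 44.1 CPM) and H2-Ab1 (8.95 and 38.3 CPM) rose, and 4 were not called, among them Lyz2 (22.5 and 25.0 CPM) and Mpeg1 (4.77 and 4.59 CPM). The sum of 10 B cell genes was 455 to 776 CPM and 159 to 461 CPM, with Pax5 at 0 in every library and Ighm at a mean of 612 and 341 CPM. Of 3 B cell genes tested, Cd22 rose (mean 0.70 and 4.04 CPM), while Ighm and Cd79b were not called. Sums of 8 NK cell genes (623 to 1615 and 2163 to 2872 CPM, mostly Gzma, which T cells also express) and 8 erythroid genes (0.186 to 1.62 and 7.57 to 61.9 CPM) were higher in every butyrate library than in any control library, and those of 9 granulocyte genes (3.90 to 15.6 and 10.5 to 34.9 CPM) overlapped. Of 5 NK cell genes tested, 2 rose (Gzma and Klrb1c) and 1 was not called. The other 2 fell, Klrd1 from a mean of 187.5 to 109.2 CPM and Eomes from 83.2 to 54.6 CPM. Of 2 granulocyte genes tested, Siglecf rose (mean 0.40 and 7.92 CPM) and Cpa3 was not called. Siglecf and Cd22 passed the filter through the butyrate libraries alone, so they could only be seen to rise. The part of these other cells in the results for the p53 genes was not tested, and in bulk RNA fewer cells of a type cannot be told apart from less RNA per cell.

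Promoter sequence was taken from the RefSeq promoter windows of GRCm38.p6, which run from 250 bases before to 50 bases after a start site. Windows were present for 8 of the 10 genes (11 windows, 3 of them for Bbc3 and 2 for Trp73). The windows were searched on both strands for the p53 consensus decamer, the 10-base unit that p53 binds in pairs. It was found once each in Mdm2, Ccng1, Trp53 and Gadd45a, and 8.36% of all 32851 promoter windows hold it. These stretches are shown because they place a p53-type sequence next to the start of 4 of the genes described; capitals mark the decamer.
Mdm2 (chr10:117710915-117710964, - strand): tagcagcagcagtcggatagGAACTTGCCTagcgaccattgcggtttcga
Ccng1 (chr11:40755442-40755491, - strand): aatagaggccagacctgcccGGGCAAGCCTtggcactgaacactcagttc
Trp53 (chr11:69580264-69580313, + strand): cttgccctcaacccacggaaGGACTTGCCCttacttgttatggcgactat
Gadd45a (chr6:67037418-67037467, - strand): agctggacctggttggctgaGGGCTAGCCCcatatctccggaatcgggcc
The decamer began 186 bases before the start site in Mdm2, 185 in Ccng1, 75 in Trp53 and 40 in Gadd45a. Of these 4 genes, 1 rose with butyrate (Mdm2), 1 fell (Trp53) and the others were not called. Over all genes tested, 23.5% rose and 22.5% fell. The calls of Mdm2 and Trp53 were lost in 6 and 8 of the 15 alternative settings described below. No decamer lay in the windows of Trp73, Sesn2, Phlda3 or Bbc3, which says only that these letters are absent from these windows.

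The 250 bases before each of the Trp73 start sites are shown because this gene changed most and its separate starts give different proteins. Capitals mark GGGCGG, the core of the GC box, searched on both strands (35.7% of all windows hold it).
Trp73 upstream start (chr4:154139876-154140125, - strand): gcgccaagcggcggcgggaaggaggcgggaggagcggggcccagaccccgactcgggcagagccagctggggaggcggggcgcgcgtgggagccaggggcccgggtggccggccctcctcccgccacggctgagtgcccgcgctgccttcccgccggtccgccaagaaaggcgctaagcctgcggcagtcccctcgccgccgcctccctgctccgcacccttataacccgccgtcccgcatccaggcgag
Trp73 internal start (chr4:154097174-154097423, - strand): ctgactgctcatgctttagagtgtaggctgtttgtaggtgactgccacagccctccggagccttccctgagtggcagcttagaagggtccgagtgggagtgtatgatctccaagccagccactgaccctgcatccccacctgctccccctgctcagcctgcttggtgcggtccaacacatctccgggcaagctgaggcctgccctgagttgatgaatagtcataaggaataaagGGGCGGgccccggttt
Including the 50 bases after the start, the upstream window had a GC content of 77.7% and 39 CpG dinucleotides, and the internal window 57.7% and 6, while the medians over all windows were 52.7% and 7. Counts are given per gene, so reads of the long and the truncated forms of Trp73 cannot be separated.

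Of the 10 genes, 5 rose and 2 fell with butyrate at an edgeR adjusted p under 0.05. Trp73 rose from almost nothing, the stress genes Sesn2, Pmaip1 and Zmat3 rose between 1.59-fold and 2.44-fold, and Mdm2 rose 1.40-fold. Bbc3 and Trp53 fell, while Ccng1, Phlda3 and Gadd45a were not called. Over all genes tested, 45.9% were called, 23.5% higher and 22.5% lower, so a call on its own is a common outcome in these libraries. The median log2 fold change was 0.49 over the 10 genes and 0.00343 over all genes tested. Ranges of the groups did not overlap for 7 of the 10, against 57.1% of all genes tested. These counts and the median include Trp73, which passed the filter through the butyrate libraries alone and so could only be seen to rise. The 10 genes and the gene lists below were chosen with earlier results of these data known. Setting them beside all genes is therefore not an independent test.

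**Figure D1:**
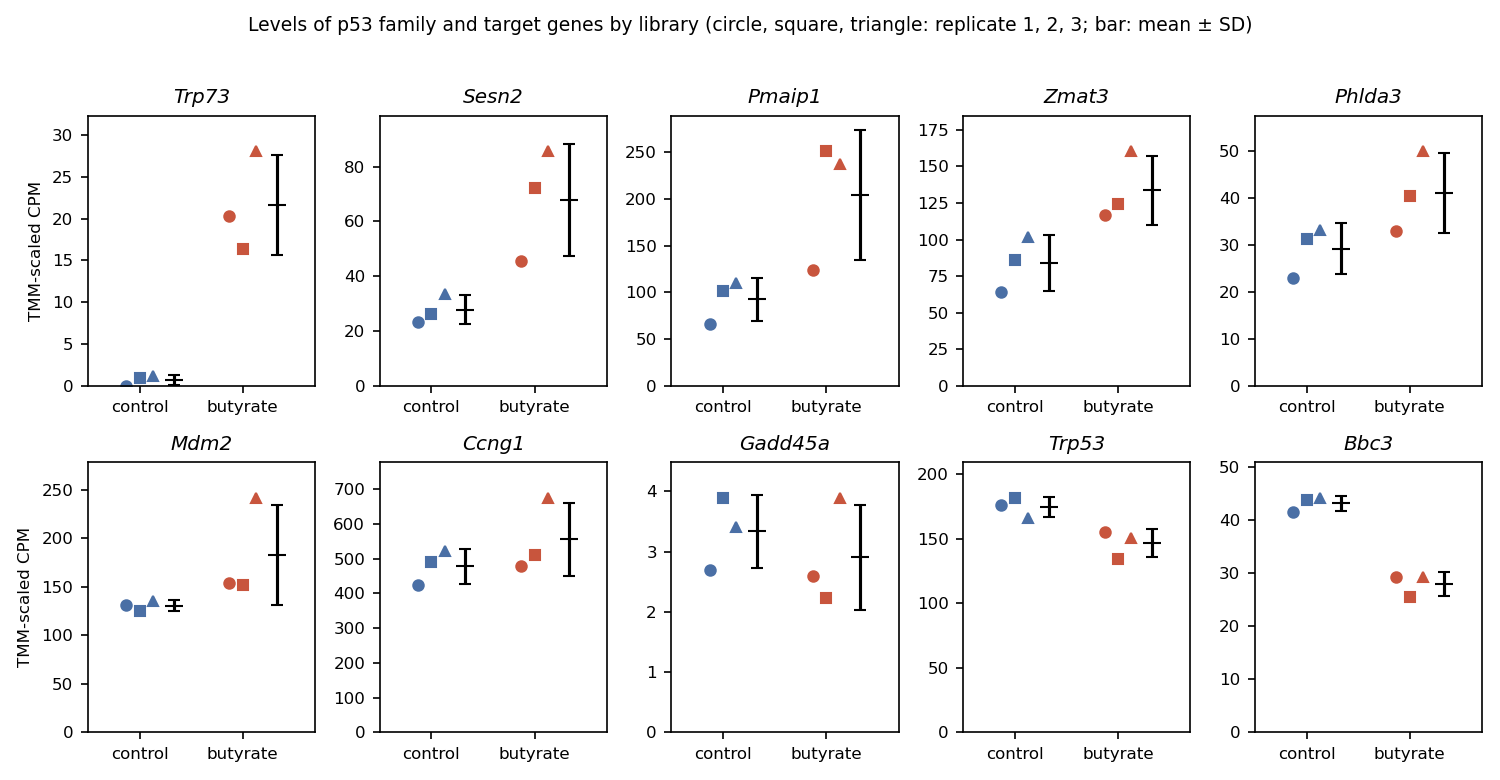
TMM-scaled CPM of each gene (vertical axes from 0) in the 3 control and 3 butyrate libraries, with symbols for replicate number and a bar for the mean ± SD. Trp73 stood at 0 to 1.14 CPM in control and 16.3 to 28.1 CPM with butyrate, and the triangle of replicate 3 was the highest butyrate point in 8 of the 10 panels.

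Trp53 (chromosome 11, 69580348 to 69591873, gene 22059; coordinates here are those of RefSeq GRCm38.p6, the assembly behind mm10) was among the more abundant of the 10. It was at 176, 182 and 166 CPM in control replicates 1 to 3 and at 155, 134 and 150 CPM in the butyrate replicates. The lowest control library lay above the highest butyrate library, but the gap was small. The log2 fold change was -0.25 (SE 0.0854, adjusted p = 0.0373 by edgeR's quasi-likelihood test), a level 0.839 times that of control, with a 95% interval of 0.733 to 0.959. The call depended on the setting. It was lost with upper quartile scaling (adjusted p = 0.131), a stricter filter of at least 5 CPM in 3 libraries (0.0566) and DESeq2 (0.0621), and without control replicate 1 (0.093), 2 (0.123) or 3 (0.0551) or butyrate replicate 2 (0.118) or 3 (0.0552), and the lowest value over the alternatives was 0.0265.

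Trp73 (chromosome 4, 154056249 to 154139875, gene 22062) had 0, 5 and 7 reads in the control libraries and 110, 95 and 152 reads in the butyrate libraries. Scaled to library size these were 0, 0.927 and 1.14 CPM against 20.3, 16.3 and 28.1 CPM. Every butyrate library stood far above every control library. The log2 fold change was 4.90 (SE 0.467, edgeR adjusted p = 0.000106), or 29.9-fold with a 95% interval of 14.3 to 62.2, and 65 of the 11740 genes tested had a larger rise. The gene passed the filter through the butyrate libraries alone, so it could only be seen to rise, and its fold hangs on the 12 control reads: leaving out control replicate 3 moved the log2 fold change to 5.50. Trp63, the remaining member of the family and named outside the naming rule, had 0 reads in all 6 libraries.

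Mdm2 (chromosome 10, 117688875 to 117710758, gene 17246), the antagonist and target of p53, was at 131, 125 and 135 CPM in control and at 154, 152 and 242 CPM with butyrate. The control libraries lay close together, and the butyrate libraries were spread by 1 high value. On the log2 scale Mdm2 rose by 0.48 (SE 0.170, edgeR adjusted p = 0.0436). Without butyrate replicate 3, the high library, it was 0.23 (adjusted p = 0.061). The call was also lost with limma voom (0.0516) and robust edgeR (0.0529) and without control replicate 1 (0.0876), 2 (0.12) or 3 (0.0797), while the lowest value was 0.0108. Mdm4, which encodes the partner of MDM2 in holding p53 down and is named outside the rule, had means of 179 ± 11.3 CPM without and 169 ± 3.97 CPM with butyrate (SD, n = 3) and was not called (edgeR adjusted p = 0.446, log2 interval -0.26 to 0.10).

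Both BH3-only genes of the set, whose products trigger apoptosis by binding BCL2-type proteins, were called, in opposite directions. Pmaip1, which encodes NOXA (chromosome 18, 66458604 to 66465558, gene 58801), was at 66.4, 102 and 110 CPM in control and at 124, 251 and 237 CPM with butyrate. The lowest butyrate library was only a little above the highest control library, and the other libraries were far above it. Its log2 fold change was 1.14 (SE 0.269, edgeR adjusted p = 0.00821). Bbc3, which encodes PUMA (chromosome 7, 16308398 to 16318334, gene 170770), was at 41.6, 43.8 and 44.3 CPM in control and at 29.2, 25.4 and 29.4 CPM with butyrate. The libraries of each group were close together and the groups well apart, with a coefficient of variation of 3.32% in control and 7.95% with butyrate. The log2 fold change was -0.63 (95% interval -0.85 to -0.40, edgeR adjusted p = 0.00118).

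Sesn2 (chromosome 4, 132492804 to 132510456, gene 230784), which encodes sestrin 2, a leucine-binding inhibitor of mTORC1 signalling, was at 23.4, 26.2 and 33.6 CPM in control and at 45.5, 72.0 and 85.7 CPM with butyrate. Groups did not overlap, and the butyrate libraries were widely spread. On the log2 scale Sesn2 rose by 1.29 (SE 0.228, edgeR adjusted p = 0.00199).

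Zmat3 (chromosome 3, 32334792 to 32365665, gene 22401), the gene of an RNA-binding zinc finger protein, was at 64.1, 86.2 and 102 CPM in control and at 117, 124 and 161 CPM with butyrate. Its groups were separated by less than the range within either. On the log2 scale Zmat3 rose by 0.67 (SE 0.176, edgeR adjusted p = 0.0138). The noncoding gene 4930429B21Rik overlaps the Zmat3 locus by 177 bases and held 14 control and 32 butyrate reads against 1450 and 2221 for Zmat3. No source used here gives the strand setting of the counting, so reads of overlapping genes may have been exchanged.

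Phlda3 (chromosome 1, 135766085 to 135769134, gene 27280), which encodes a PH-domain protein that competes with AKT at the membrane, was at 23.0, 31.3 and 33.3 CPM in control and at 33.1, 40.4 and 50.1 CPM with butyrate. The lowest butyrate library lay just inside the control range. Its log2 fold change was 0.49 (SE 0.181), close to that of Mdm2, and the gene just missed the threshold (edgeR adjusted p = 0.051). With the replicate number as a block it was called (0.49, adjusted p = 0.00289). It was also called with RLE (0.0498), upper quartile (0.0289) or total-count scaling (0.0453), the stricter filter (0.0441), DESeq2 (0.0417) and robust edgeR (0.0483), and when control replicate 3 (0.0488) or butyrate replicate 1 (0.0195) was left out. Its adjusted p reached 0.168 at most.

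Ccng1 (chromosome 11, 40748552 to 40755309, gene 12450), which encodes cyclin G1, a partner of the phosphatase PP2A, was the most abundant of the 10. It was at 423, 490 and 522 CPM in control and at 478, 512 and 676 CPM with butyrate. Groups overlapped, with 1 butyrate library above the rest. A log2 fold change of 0.21 did not pass the test (SE 0.141, edgeR adjusted p = 0.24), and its interval of -0.10 to 0.53 allows at most a 1.45-fold rise.

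Gadd45a (chromosome 6, 67035096 to 67037407, gene 13197), a growth arrest and DNA damage gene, was the least abundant in CPM after Trp73 in control. It was at 2.70, 3.90 and 3.41 CPM in control and at 2.59, 2.23 and 3.88 CPM with butyrate, from 13 to 21 reads a library. Groups overlapped almost wholly. Its log2 fold change was -0.20 with an interval of -0.89 to 0.49 (edgeR adjusted p = 0.611). The noncoding gene E230016M11Rik overlaps the locus by 809 bases and held 11 control and 7 butyrate reads.

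**Figure D2:**
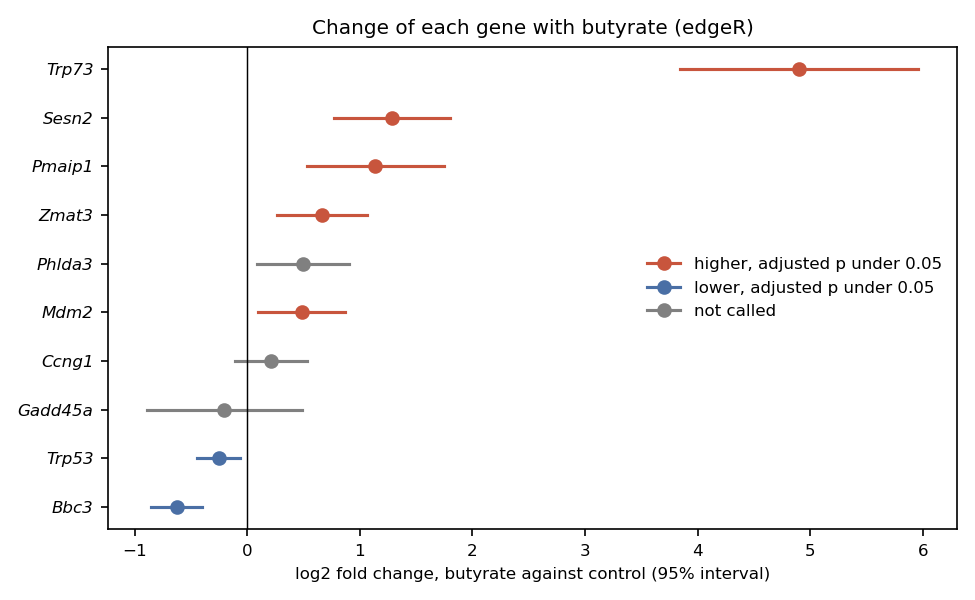
Log2 fold change of each gene with butyrate against control, with its 95% interval, from edgeR over all 6 libraries. Trp73 stands apart at 4.90, the other called genes lie between -0.63 and 1.29, and the intervals of Ccng1 and Gadd45a span 0.

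Levels were compared between genes as RPKM, the scaled CPM per kilobase of merged GENCODE exons. In control the order was Ccng1 at 136 ± 14.4 RPKM, Trp53 at 43.2 ± 1.93, Pmaip1 at 33.9 ± 8.45, Mdm2 at 25.7 ± 1.06, Bbc3 at 20.4 ± 0.676, Phlda3 at 18.7 ± 3.48, Sesn2 at 7.97 ± 1.51, Zmat3 at 7.36 ± 1.67, Gadd45a at 1.89 ± 0.34 and Trp73 at 0.124 ± 0.109 RPKM (SD, n = 3). Library ranges overlapped between Pmaip1 and Mdm2, between Bbc3 and Phlda3, and between Sesn2 and Zmat3, so the order within these pairs is not resolved. With butyrate Pmaip1 stood second at 74.7 ± 25.6 RPKM, followed by Trp53 at 36.2 ± 2.7 and Mdm2 at 35.9 ± 10.1. The library range of Mdm2 overlapped those of both Pmaip1 and Trp53, so its place among them is not resolved. Next came Phlda3 at 26.4 ± 5.46, Sesn2 at 19.5 ± 5.89, Bbc3 at 13.2 ± 1.05 and Zmat3 at 11.7 ± 2.06 RPKM, each overlapping the gene before it. Trp73, at 3.90 ± 1.08 RPKM, passed Gadd45a, at 1.65 ± 0.491, but stayed well below Trp53.

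**Figure D3:**
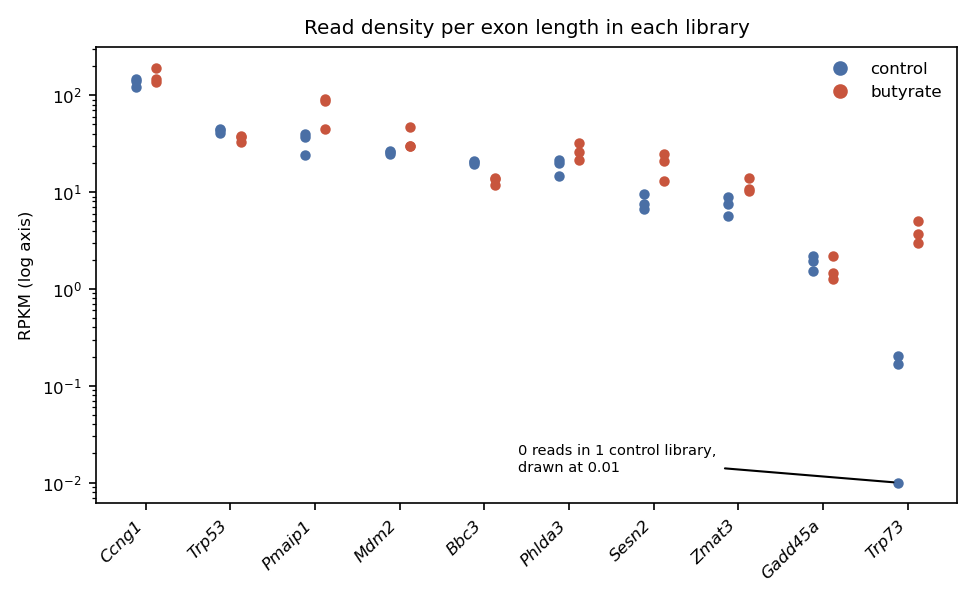
RPKM of each gene in each library on a log axis, ordered by the control mean, with the control library without Trp73 reads drawn at 0.01. Ccng1 was highest in both groups, and Trp73 moved from 0 to 0.205 RPKM in control to between 2.95 and 5.08 RPKM with butyrate.

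Within the groups, the 10 genes tended to be high or low in the same libraries. Control replicate 3 was the highest control library for 8 of the 10 genes, against 33.4% of all genes tested, and control replicate 1 was the lowest for 8, against 36.5%. Butyrate replicate 3 was the highest butyrate library for 8 genes, against 31.6%, and the lowest for 0, against 37.6%. For 7 genes (Trp73, Mdm2, Ccng1, Bbc3, Sesn2, Phlda3 and Zmat3) replicate 3 was highest in both groups, against 14.7% of all genes tested. Trp53 did not share this order, with its highest values in control replicate 2 and butyrate replicate 1. In the list of other p53 targets, 19 of 41 tested genes were highest in control replicate 3 and 19 of 41 in butyrate replicate 3.

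Differences within same-numbered libraries were therefore set beside the group means. The log2 difference between the butyrate and control libraries of replicates 1, 2 and 3 was 0.96, 1.46 and 1.35 for Sesn2 and 0.90, 1.30 and 1.11 for Pmaip1. It was 0.86, 0.52 and 0.65 for Zmat3 and 0.52, 0.37 and 0.59 for Phlda3, each positive in 3 of 3. For Bbc3 it was -0.51, -0.78 and -0.59, and for Trp53 -0.18, -0.44 and -0.14. Mdm2 had 0.23, 0.29 and 0.84, so replicate 3 carried most of its mean difference, and Ccng1 had 0.18, 0.06 and 0.37. Gadd45a had differences of -0.06, -0.80 and 0.19, with no common sign.

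Other p53 targets, a list of 43 genes without the 10, moved both ways. Of 41 tested, 14 rose, 10 fell and 17 were not called, with a median log2 fold change of 0.08. The rises include Sulf2, Epha2, Dram1 and Ak1, named outside the rule (control means 0.77, 0.53, 1.39 and 1.32 CPM). These would not have passed the filter on their control libraries alone, so a fall could hardly have been seen. Since 23.5% of all genes tested rose and 22.5% fell, calls both ways are common in these libraries. Cdkn1a, which encodes the cell cycle inhibitor p21, was at 117, 151 and 219 CPM in control and at 332, 514 and 593 CPM with butyrate. All butyrate libraries lay above all control libraries, and the log2 fold change was 1.56 (SE 0.258, edgeR adjusted p = 0.00138). The kinase gene Dyrk3 rose from 22.7 ± 2.87 to 52.6 ± 5.93 CPM (SD, n = 3). Ckap2, a gene of a spindle protein, fell from 110 ± 2.2 to 52.0 ± 4.15 CPM, and Sesn1, a paralog of Sesn2, from 83.0 ± 6.77 to 40.7 ± 5.25 CPM.

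Of 33 regulators of p53, 32 were tested. Of these 5 rose and 13 fell (median log2 fold change -0.09), beside 23.5% and 22.5% of all genes tested. The rises include Zfp385a and Ppp1r13l, named outside the rule (control means 1.30 and 2.40 CPM). Neither would have passed the filter on its control libraries alone, so a fall could hardly have been seen. The falls included Crebbp, an acetyltransferase gene whose product acetylates p53, from 45.8 ± 1.9 to 18.6 ± 2.71 CPM, and Sirt1, a deacetylase gene whose product removes such marks, from 83.6 ± 3.75 to 38.5 ± 2.12 CPM (SD, n = 3). Rpl5, whose ribosomal protein product can bind MDM2, rose from 27.6 ± 3.32 to 64.5 ± 7.45 CPM. Its count is uncertain, since Rpl5 has pseudogene copies and no source used here says how reads of near-identical genes were counted. Hipk2, a p53 kinase gene, was at 10.9 ± 1.3 and 15.8 ± 2.72 CPM (edgeR adjusted p = 0.0351). Its call was lost with DESeq2 (0.0707) and without control replicate 1 (0.0779) or 2 (0.0998) or butyrate replicate 1 (0.109) or 3 (0.0818), and the lowest value was 0.016. Cdkn2a, named outside the rule, encodes p19ARF, which blocks MDM2, but counts per gene cannot separate the p19ARF transcript from others of Cdkn2a. The gene was at 15.7, 28.9 and 47.4 CPM in control and at 25.3, 38.3 and 87.8 CPM with butyrate. It was not called (edgeR adjusted p = 0.251), with a log2 fold change of 0.71, and its highest libraries were again those of replicate 3. The log2 fold change was 0.048 without butyrate replicate 3 (edgeR adjusted p = 0.931), 0.41 without control replicate 1 (0.518) and 1.19 without control replicate 3 (0.097). With the replicate block it was 0.68 and was called (adjusted p = 0.00129).

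Among 19 paralogs of the 10 genes, 15 were tested. Of these 6 rose and 2 fell (median log2 fold change 0.29), beside 23.5% and 22.5% of all genes tested. The rises include Bik, named outside the rule (control mean 1.60 CPM). It would not have passed the filter on its control libraries alone, so a fall could hardly have been seen. Relatives of a single gene differed in their calls. Gadd45g and Gadd45b, stress genes of the Gadd45a family, rose from 37.5 ± 10.9 to 272.9 ± 86.5 CPM and from 14.8 ± 1.59 to 39.8 ± 6.88 CPM (SD, n = 3), with log2 fold changes of 2.86 and 1.43, while Gadd45a was not called. Whether these changes differ from that of Gadd45a was not tested. Ccng2, the paralog of Ccng1, fell from 172 ± 20.1 to 71.5 ± 8.74 CPM, and Sesn1 fell while Sesn2 rose. Sesn1, Mdm4, Ppm1d and Ddit4 each stand on more than 1 of these lists.

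Sesn2 and Pmaip1 are also known targets of ATF4, the transcription factor of the integrated stress response, so 20 ATF4 stress genes were set beside them. Of 18 tested, 4 rose, 0 fell and 14 were not called (median log2 fold change 0.07), while 23.5% of all genes tested rose and 22.5% fell. With the replicate block 2 fell, and 1 fell without control replicate 1 and without butyrate replicate 3. Atf3, a stress-induced transcription factor gene, rose from 9.49 ± 0.773 to 52.1 ± 12.7 CPM, and Cebpb, a gene of a related factor, from 9.97 ± 1.77 to 24.7 ± 1.43 CPM (SD, n = 3). Genes not called included Atf4, Trib3, Asns, Ddit3 and Chac1, with log2 fold changes of 0.03, 0.02, 0.08, -0.41 and -0.55.

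**Figure D4:**
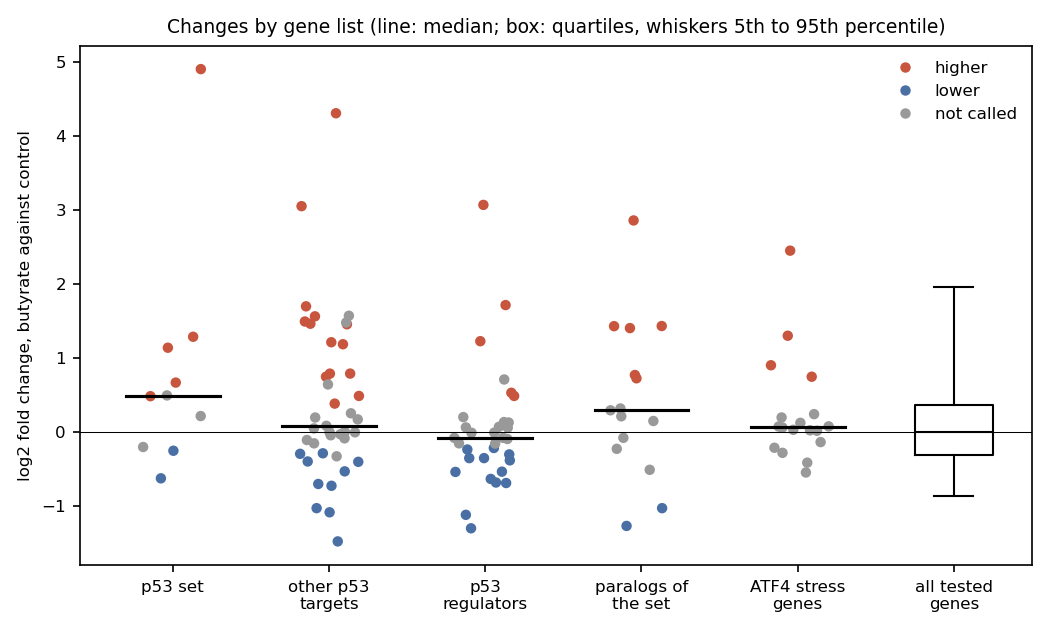
Log2 fold changes with butyrate for tested genes of the p53 set and of 4 further lists, with their medians, beside a box for all 11740 genes tested (quartiles, with whiskers from the 5th to the 95th percentile). Every list holds both called and uncalled genes, and the list medians run from -0.09 for the regulators to 0.49 for the p53 set.

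Across 15 alternative settings, Trp73, Sesn2, Pmaip1, Zmat3 and Bbc3 kept their calls and directions in every one. For Trp73 the direction was fixed in advance wherever a filter was used, since it passed through the butyrate libraries alone. Their highest adjusted p values were 0.00111 for Trp73, 0.0109 for Sesn2, 0.0353 for Pmaip1, 0.0458 for Zmat3 and 0.00638 for Bbc3. The calls of Trp53 and Mdm2 were lost in 8 and 6 settings, Phlda3 was called in 9, and Ccng1 was called in 0, as was Gadd45a in the 14 settings in which it was tested.

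**Figure D5:**
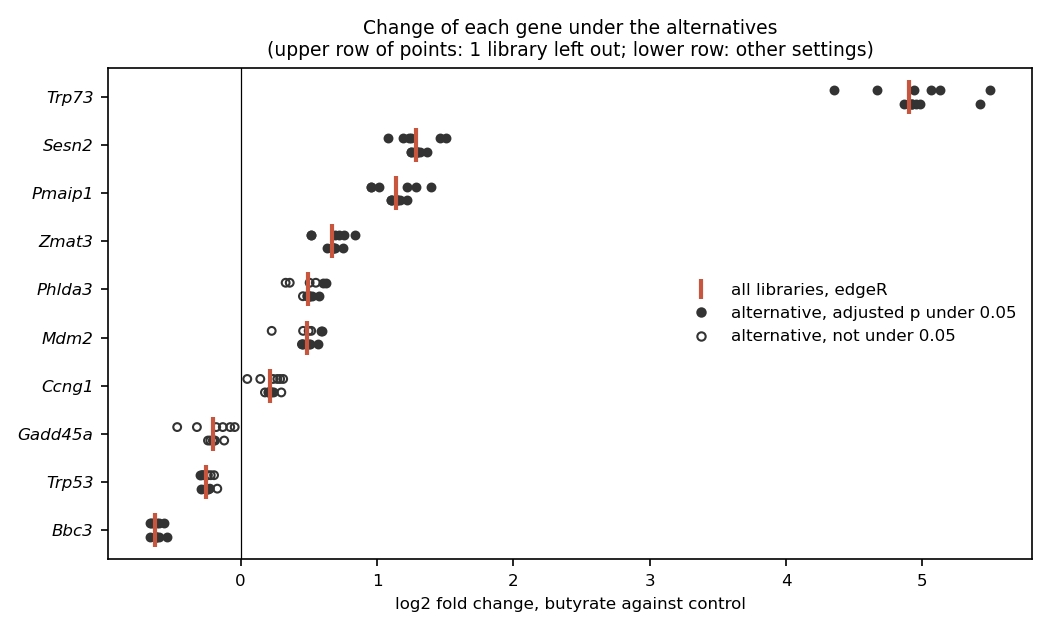
Log2 fold change of each gene with all libraries (bars) and under the alternatives (points, filled where the adjusted p was under 0.05), with 1 library left out in the upper row and other settings in the lower row. Points of Trp73 run from 4.36 to 5.50 and are all filled, while those of Mdm2 run from 0.23 to 0.60 and are filled in part.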

How the data were processed

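RNA of 6 libraries, 3 control and 3 butyrate, was made with Trizol and a TruSeq RNA kit from 1 µg of total RNA, per the labels' protocols. The authors deposited raw read counts per gene, with Entrez gene numbers. CASAVA, TopHat, Picard, Subread, featureCounts, edgeR and the build mm10 are listed in the submitters' processing notes. Versions, roles, strand setting and how reads of near-identical genes were counted: not given in the sources used here. Of 27179 gene numbers, 25275 were named from RefSeq GRCm38.p6 and 18 from GENCODE M21; 1886 stayed unnamed and were kept in the tests.

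The groups were compared with the quasi-likelihood test of edgeR 4.0.16 (under R 4.3.3), using TMM scaling, filterByExpr (minimum count 10) and Benjamini-Hochberg adjustment over all 11740 genes tested; the fit was tested on simulated data. CPM is TMM-scaled. An SE is the absolute log2 fold change over the square root of F. Libraries of the same number deviated together from their group means (correlations over genes of 0.362, 0.197 and 0.353 for replicates 1, 2 and 3, and -0.301 to -0.0746 between different numbers), so the replicate block is treated as a pairing seen in the data; the labels do not state one. Deviations from a group mean cancel within the group, so the negative correlations between different numbers are not separate evidence of a pairing. P-values here reflect only the spread among the libraries, which may be technical.

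The members and gene lists were chosen with earlier results of these data known. All 10 members are named; of each further list, up to 2 called genes per direction with the largest change and a mean of at least 10 CPM. Alternatives were scaling by RLE, by upper quartile or by total counts, no filter, a stricter filter (at least 5 CPM in 3 libraries), robust edgeR, limma voom (3.58.1), DESeq2 (1.42.0), the replicate block and each library left out.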

Additional observations from a re-analysis of the deposited data

How the results depend on the processing

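The number of p53 genes called higher was 5 and lay between 4 and 6 over the 15 alternatives. The number called lower was 2. It was 1 with upper quartile scaling, with at least 5 CPM in 3 libraries and with DESeq2, and 1 to 2 when single libraries were left out, since Trp53 lost its call. With the replicate block 6 genes were higher and 2 lower, and the calls over all genes went from 2756 higher and 2637 lower to 3220 and 3095; among the 10 genes the block changed only the call of Phlda3. Upper quartile scaling put 61.8% of all calls on the higher side, against 51.1% with TMM, and turned the uncalled log2 fold change of Mdm4 from -0.08 to 0.0033. Gadd45a had no value under the stricter filter. Leaving out single libraries gave 2369 to 2633 genes called higher and 2118 to 2552 called lower. Depth limited Gadd45a and the control level of Trp73, which rest on 57 and 12 control reads.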

Other observations

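Rps27l, a ribosomal protein-like gene on the list of other p53 targets, was at 12.6, 17.8 and 20.3 CPM in control and at 15.2, 102 and 33.4 CPM with butyrate, so that 1 library held most of its reads. It was not called (edgeR adjusted p = 0.0536). It was named after its values were seen, and it was called without butyrate replicate 1 (0.00613), with upper quartile scaling (0.0448), with no filter (0.0313) and with the replicate block (0.0118). Without butyrate replicate 2 its log2 fold change was 0.52 (edgeR adjusted p = 0.253). In the list of ATF4 stress genes, 14 of 18 tested genes were highest in butyrate replicate 3, the library that was also highest for 8 of the 10 p53 genes. That library was the highest butyrate library for 31.6% of all genes tested. It was so for 11 of 32 tested p53 regulators, 3 of 15 paralogs and 19 of 41 other p53 targets. What these genes share in that library was not tested.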
